A study of Mus musculus with 2 samples.

Results

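Spatial transcriptomics captured 6 genes of fascia and universal fibroblasts, Pi16, Dpp4, Scara5, Prg4, Msln and Enpp2, in the skin of imiquimod-treated mice. They were selected by gene symbol among the 19465 genes of the count tables, and the choice was made with earlier values from the same sections known. Their levels and differences are therefore a description and carry no test. The skin came from 1 S1pr2fl/fl mouse, whose S1pr2 alleles are floxed, and from 1 S1pr2fl/fl K14-Cre mouse, which carries the same floxed alleles together with a Cre recombinase driven by the keratin 14 promoter of basal keratinocytes. Both mice were treated from 8 weeks of age with 62.5 mg of 5% imiquimod (IMQ) cream per day for 7 days on depilated back skin, so neither section shows untreated skin. S1pr2 encodes a receptor for sphingosine-1-phosphate, and the study asked what its loss in keratinocytes does to psoriasis-like inflammation. With 1 section per genotype, genotype, animal and section cannot be told apart.

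Fascia is the loose connective tissue under the dermis, the fat and the thin muscle sheet of mouse skin. A fibroblast state marked by Pi16 and Dpp4 occurs there and around vessels of many organs, and it has been called universal. It has also been proposed as a reserve from which specialised fibroblasts arise. The other genes mark layers that glide or line a surface, or fibroblasts of the deeper skin. Pi16 encodes a peptidase inhibitor held at the cell surface, and Dpp4 (CD26) a surface peptidase that removes dipeptides from chemokines such as CXCL12. Scara5 encodes a scavenger receptor that takes up ferritin, Prg4 the lubricating proteoglycan lubricin, and Enpp2 the secreted enzyme autotaxin, which makes lysophosphatidic acid. Msln encodes mesothelin, a surface glycoprotein of the mesothelial cells that line body cavities.

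On the mouse build GRCm38.p6 (mm10), RefSeq places Pi16 on chromosome 17 from 29318796 to 29328903 and Msln on the same chromosome from 25748613 to 25754378. Dpp4 lies on chromosome 2 from 62330073 to 62412315, Scara5 on chromosome 14 from 65666403 to 65764826, Prg4 on chromosome 1 from 150449412 to 150466221 and Enpp2 on chromosome 15 from 54838901 to 54952789. The RefSeq promoter table held windows for 2 of the 6 genes, Pi16 and Dpp4, each running from 250 bases before to 50 bases after an annotated transcript start. They are shown because these genes define the universal fibroblast state together, yet differed in depth in the S1pr2fl/fl section. Both strands of both windows were searched for 3 motifs, and capitals mark the matches. The motifs were TATAAA for the TATA box, TGANTCA for AP-1 factors and, for TEAD factors, GGAATG.
Pi16, chr17:29318632-29318931, plus strand: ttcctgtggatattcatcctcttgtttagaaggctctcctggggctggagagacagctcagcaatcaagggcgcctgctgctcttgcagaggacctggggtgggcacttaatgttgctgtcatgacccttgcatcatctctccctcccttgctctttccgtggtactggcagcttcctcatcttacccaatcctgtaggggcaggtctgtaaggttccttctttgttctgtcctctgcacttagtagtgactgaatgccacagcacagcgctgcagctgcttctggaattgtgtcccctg
Dpp4, chr2:62412182-62412481, minus strand: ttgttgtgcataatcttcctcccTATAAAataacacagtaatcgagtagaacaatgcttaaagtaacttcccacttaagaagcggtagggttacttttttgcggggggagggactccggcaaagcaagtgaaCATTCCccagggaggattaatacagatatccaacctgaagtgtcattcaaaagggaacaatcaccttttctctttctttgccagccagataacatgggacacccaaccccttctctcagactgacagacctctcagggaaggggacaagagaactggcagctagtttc
The Dpp4 window held 1 TATAAA match, at -227 from the start, and 1 GGAATG match on the opposite strand, at -118, while the Pi16 window held none of the letters searched. The motifs did not overlap there, and none was particular to these genes. Among 32851 promoter windows of the same length, 13.6% held TATAAA, 7.81% TGANTCA and 14.7% GGAATG. These are matches of letters and show no binding.

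The S1pr2fl/fl section held 1282 spots over tissue with 5315351 UMIs (unique molecular identifiers, each the tag of 1 captured molecule) and a median of 3542.5 UMIs per spot. The S1pr2fl/fl K14-Cre section held 981 spots, 2845826 UMIs and a median of 2319. Levels are given as CPM, the UMIs of a gene per 1000000 UMIs of the same spots, and 95% intervals cover counting error only. S1pr2 itself had 154 and 54 UMIs (29.0 and 19.0 CPM), summed over all cell types of each section. The sections differed in makeup. A list of 8 skeletal muscle genes took 1.88% of the UMIs in S1pr2fl/fl and 6.0% in S1pr2fl/fl K14-Cre, a list of 8 differentiated keratinocyte genes 2.52% and 0.491%, and a list of 9 dermal fibroblast genes 1.42% and 1.90%. As a measure of unspecific signal, 1226 olfactory, vomeronasal, taste and trace amine receptor genes averaged 2.21 CPM in S1pr2fl/fl and 5.98 CPM in S1pr2fl/fl K14-Cre, 2.70-fold more.

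Pi16 was the most abundant of the 6 genes in both sections, with 908 UMIs in 403 spots of S1pr2fl/fl and 383 UMIs in 157 spots of S1pr2fl/fl K14-Cre. It supplied 51.0% and 40% of all UMIs of the 6 genes. Its level was 171 CPM (interval, 160 to 182) and 135 CPM (121 to 149), a log2 ratio of S1pr2fl/fl K14-Cre over S1pr2fl/fl of -0.34 (-0.52 to -0.17). Pi16 was thus modestly lower in the S1pr2fl/fl K14-Cre section. A spot of this assay covers several cells, so fewer positive cells and less RNA per cell cannot be told apart for this or any other gene here.

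Dpp4 had nearly the same level in both sections. It gave 145 UMIs in 112 spots and 78 UMIs in 53 spots, or 27.3 CPM (23.0 to 32.1) and 27.4 CPM (21.7 to 34.2), and its log2 ratio was 0.01 with an interval from -0.41 to 0.41. A difference smaller than that interval was not detectable at this depth. Scara5, the ferritin receptor, gave 268 UMIs in 171 spots and 165 UMIs in 110 spots, or 50.4 CPM (44.6 to 56.8) and 58.0 CPM (49.5 to 67.5). Its log2 ratio of 0.20 (-0.09 to 0.49) was also within counting error of 0.

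Prg4 was lower in the S1pr2fl/fl K14-Cre section, with 168 UMIs in 109 spots against 45 UMIs in 30 spots. The levels were 31.6 CPM (27 to 36.8) and 15.8 CPM (11.5 to 21.2), a log2 ratio of -1.0 (-1.51 to -0.52) that fell just short of a full 2-fold difference. On the CPM scale Enpp2 was slightly higher there, with 268 UMIs in 163 spots against 185 UMIs in 99 spots, or 50.4 CPM (44.6 to 56.8) and 65.0 CPM (56.0 to 75.1), and a log2 ratio of 0.37 (0.09 to 0.64). The direction for Enpp2 depended on the scaling: the ratio was -0.0048 after TMM scaling (a factor from edgeR that balances most genes) and -0.06 when scaled to the dermal fibroblast list. Scara5 turned likewise, to -0.17 and -0.22.

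Msln showed the widest gap of the 6 between the sections. It had 23 UMIs in 15 spots of S1pr2fl/fl and 101 UMIs in 31 spots of S1pr2fl/fl K14-Cre, or 4.33 CPM (2.74 to 6.49) and 35.5 CPM (28.9 to 43.1), a log2 ratio of 3.04 (2.37 to 3.76). Its S1pr2fl/fl count lay within the range of the receptor genes, at their 95.2 percentile, whereas the other 5 genes lay above at least 98.9% of the receptor genes in each section. As described further on, most Msln UMIs came from 1 end of the S1pr2fl/fl K14-Cre section, and without the first of 4 segments of each section the log2 ratio was 0.75.

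All 6 genes passed the minimum of 30 UMIs over both sections. Of them, 1 (Msln) was at least 2-fold higher in S1pr2fl/fl K14-Cre, where 26.1% of the 16838 genes with that minimum were, and none was at least 2-fold lower, where 4.77% of genes were. With a minimum of 100 UMIs, which all 6 also passed, 6.73% of 10439 genes were higher and 6.92% lower. The median log2 ratio was 0.10 for the 6 genes and 0.34 for all 16838 genes. The sum of the 6 genes was level, at 335 CPM and 336 CPM (log2 ratio 0.01, -0.11 to 0.12), with Pi16 and Prg4 lower and Msln and Enpp2 higher in S1pr2fl/fl K14-Cre. TMM scaling moved every log2 ratio by -0.37, and all genes shared that shift.

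**Figure D1:**
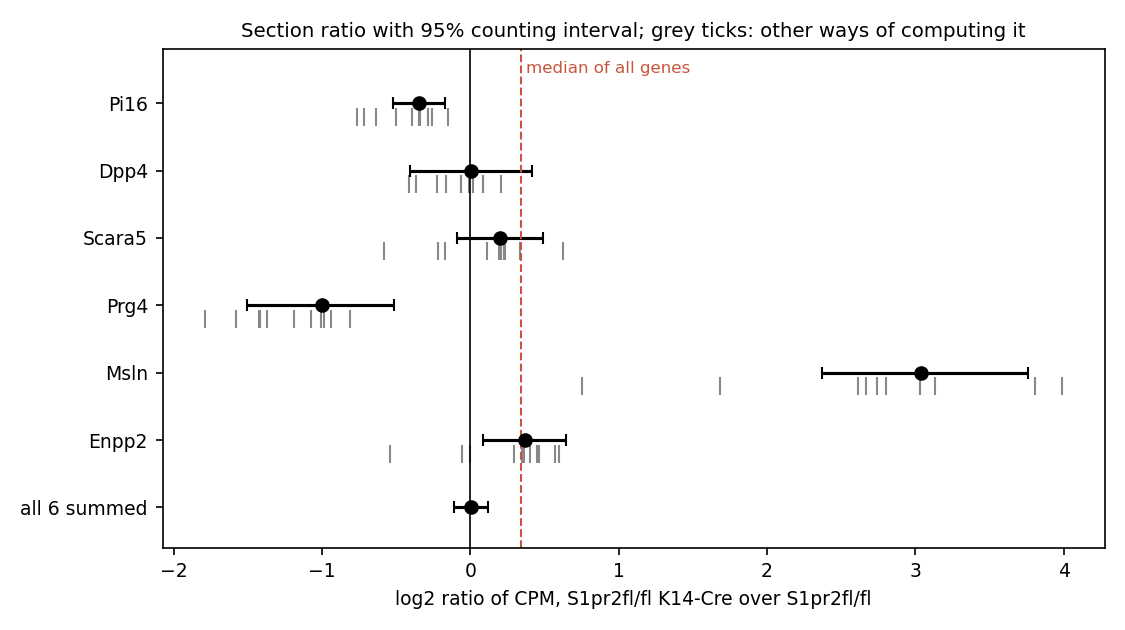
Log2 ratio of CPM, S1pr2fl/fl K14-Cre over S1pr2fl/fl (x axis), for each gene and for the sum of the 6, with 95% counting intervals as bars. Grey ticks give the same ratio computed in 11 other ways, and the dashed line is the median of all genes (0.34). Every tick lies below 0 for Pi16 and Prg4 and above 0 for Msln, while those of Dpp4, Scara5 and Enpp2 fall on both sides.

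Within a section the levels were uneven. When each section was divided along its length into 4 segments with nearly equal numbers of spots, Pi16 ranged from 134 to 230 CPM in S1pr2fl/fl and from 103 to 177 CPM in S1pr2fl/fl K14-Cre. Prg4 ranged from 10.5 to 50.4 CPM and from 5.05 to 25.8 CPM, and Enpp2 from 29.3 to 63.2 CPM and from 55.7 to 77.6 CPM. The segments of both sections therefore overlapped for these 3 genes, as they did for Dpp4 (10.5 to 31.7 CPM and 12.9 to 40.4 CPM) and Scara5 (34.9 to 55.0 CPM and 54.0 to 62.5 CPM). For Msln the ranges were 0 to 8.70 CPM and 1.61 to 71.1 CPM, with the highest value in a single segment. The lowest Prg4 value of each section rested on 3 UMIs, with intervals of 2.16 to 30.6 CPM and 1.04 to 14.8 CPM. The lowest Dpp4 value of S1pr2fl/fl also rested on 3 UMIs. Both lowest values of S1pr2fl/fl came from its segment 3, which held 286424 UMIs in 321 spots. Segments are parts of the same tissue and not replicates.

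**Figure D2:**
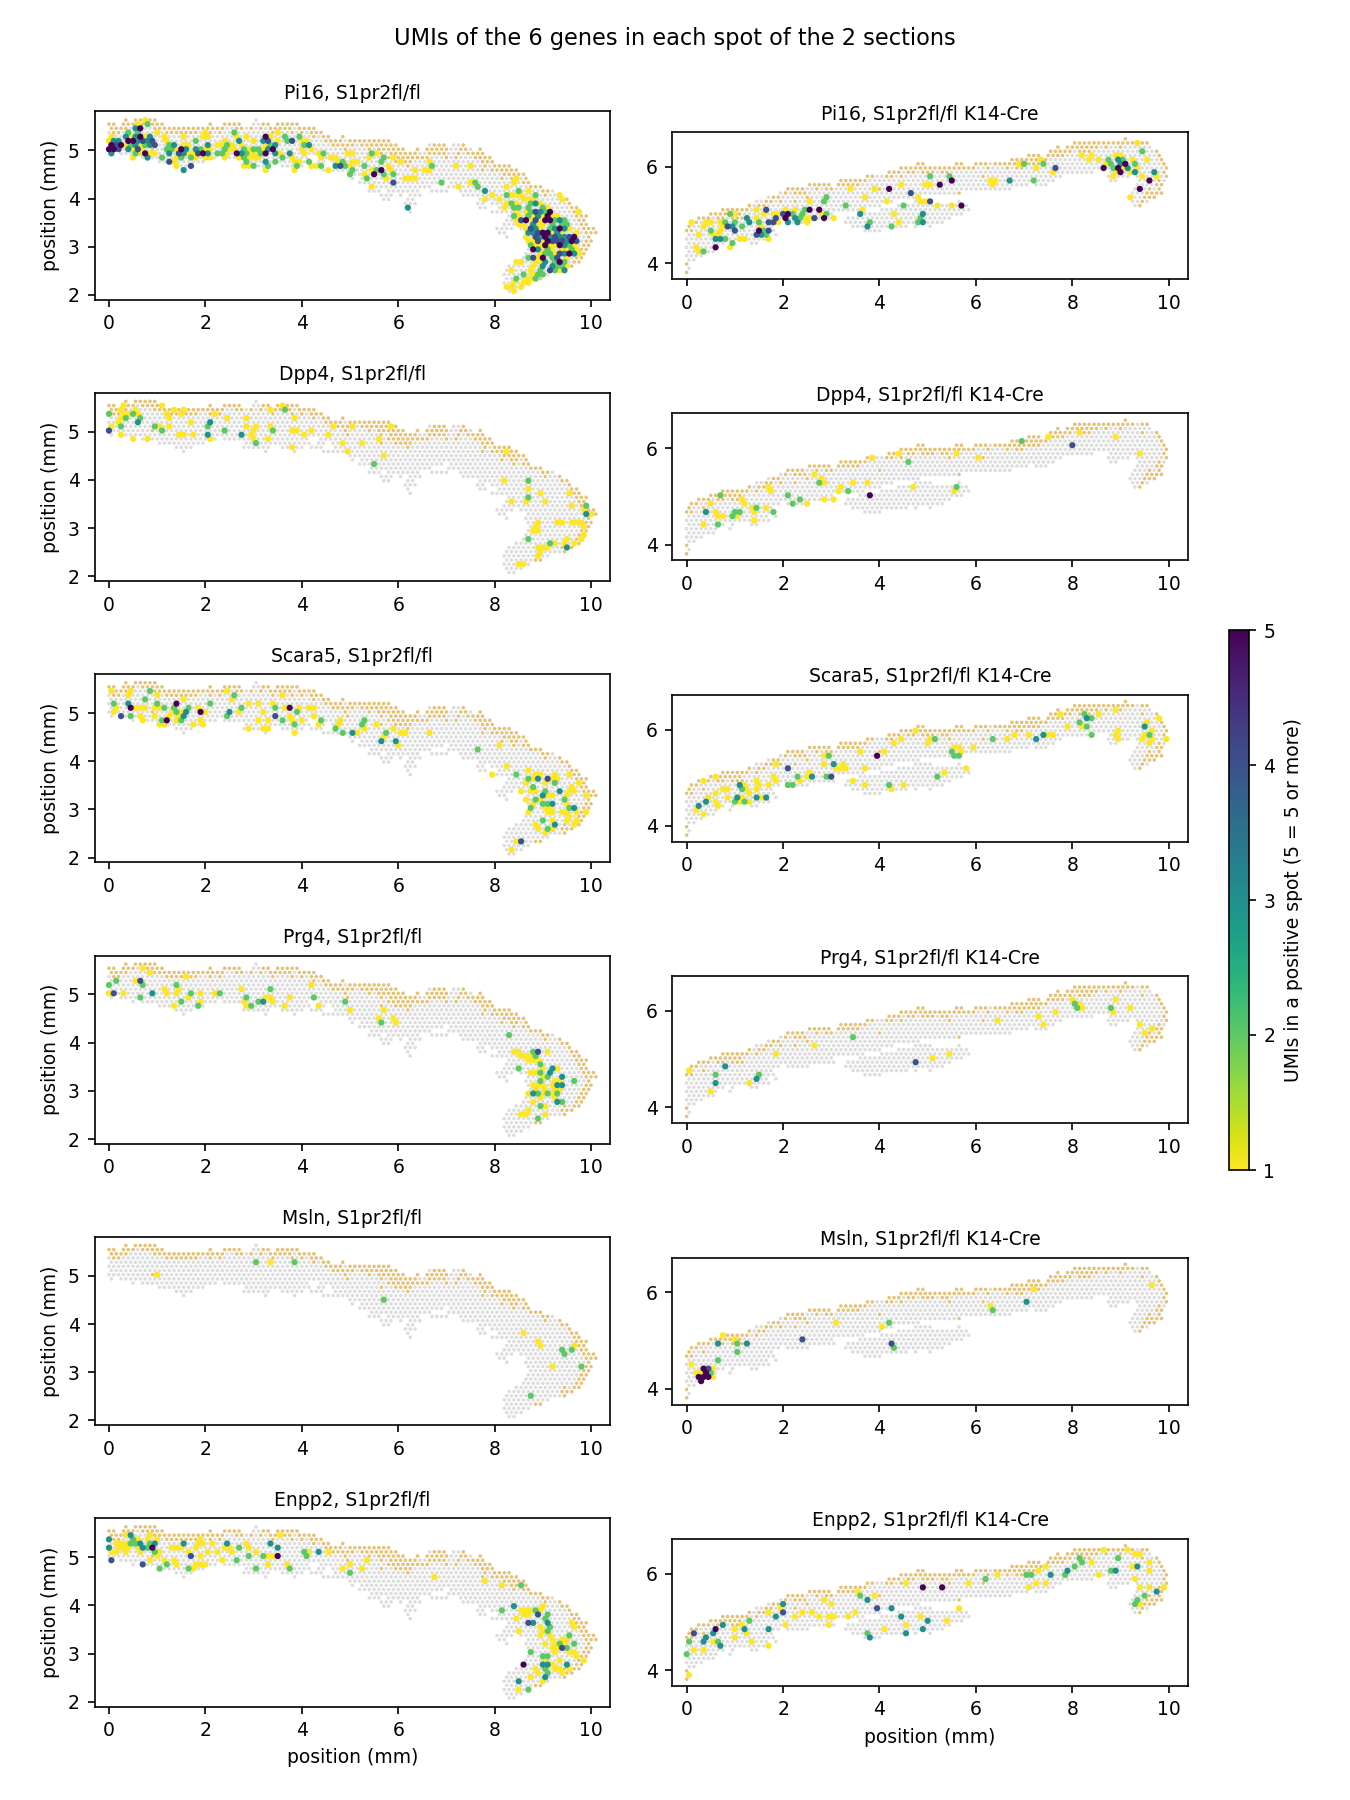
Position of every spot in connected groups of at least 20 spots (1203 in S1pr2fl/fl, left, and 970 in S1pr2fl/fl K14-Cre, right), with both axes in mm. Beige spots are surface spots, grey spots lack the gene, and positive spots are coloured by UMIs from 1 to 5 or more. Pi16, Scara5, Prg4 and Enpp2 are sparser among the surface spots of S1pr2fl/fl than beneath them, Dpp4 is not (9.72% of surface spots and 8.74% of all), and Msln gathers at the left end of S1pr2fl/fl K14-Cre.

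Depth in the skin was measured from surface spots, the 20% of spots with the highest share of differentiated keratinocyte UMIs (247 in S1pr2fl/fl and 195 in S1pr2fl/fl K14-Cre). In steps of 100 μm, the distance between neighbouring spots, the median spot lay 2.65 steps from the nearest surface spot in S1pr2fl/fl and 2.00 steps in S1pr2fl/fl K14-Cre. The surface was less sharply marked in the latter, where the keratinocyte list took 1.88% of the UMIs of surface spots, against 6.60% in S1pr2fl/fl.

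Prg4 lay deepest in S1pr2fl/fl, next to Scara5, whose interval overlapped. Its positive spots had a median distance of 4.36 steps, and 73.4% of them (64.1% to 81.4%) were deeper than the median spot, against 45% of all spots. Scara5 and Pi16 followed, each with a median of 3.46 steps and with 59.1% (51.3% to 66.5%) and 57.6% of positive spots beyond the median spot, their intervals overlapping. Enpp2 (46.0%, 38.2% to 54.0%) and Dpp4 (38.4%, 29.4% to 48.1%) had as many deep spots as the section as a whole within counting error. For Enpp2 this depended on the surface. With 30% surface spots it was at 55.8%, against 44.6% of all spots, and with basal keratinocyte spots at 39.9%, against 42.3%. The 15 Msln-positive spots (40%, 16.3% to 67.7%) were too few to place.

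The order was another in S1pr2fl/fl K14-Cre. Pi16 and Dpp4 had 68.2% (60.3% to 75.4%) and 66.0% (51.7% to 78.5%) of positive spots deeper than the median spot, against 46.6% of all spots. Msln stood at 61.3% (42.2% to 78.2%), Prg4 at 60.0% (40.6% to 77.3%) and Scara5 at 57.3% (47.5% to 66.7%). Enpp2 was the shallowest of the 6, at 42.4% (32.5% to 52.8%). The order depended on how the surface was set: with distances taken from basal keratinocyte spots, Pi16 was at 52.2%, Dpp4 at 45.3% and Msln at 54.8%, against 40.7% of all spots, and by rank from the uppermost spot at 51.6%, 49.1% and 54.8%, against 38.3%.

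Positive spots also held more UMIs of all kinds, which makes any gene easier to detect. Pi16-positive spots had a median of 5111 UMIs in S1pr2fl/fl and 2747 in S1pr2fl/fl K14-Cre, against 2248 and 2197 in spots without it. Levels per UMI by distance are therefore the firmer measure. In S1pr2fl/fl, Pi16 stood at 20.5 CPM in surface spots, 107 CPM up to 2 steps away, 273 CPM over 2 to 4 steps and 311 CPM beyond 4 steps. The corresponding levels in S1pr2fl/fl K14-Cre were 26.6, 113, 170 and 207 CPM. Pi16 thus had its lowest level at the surface and its highest beyond 4 steps in both sections.

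Prg4 climbed with distance in S1pr2fl/fl, and in S1pr2fl/fl K14-Cre it was lower at the surface and nearly level beneath it. It stood at 4.28, 11.9, 50.7 and 68.3 CPM over the same 4 distances in S1pr2fl/fl, and at 1.90, 17.2, 20.3 and 19.7 CPM in S1pr2fl/fl K14-Cre. The section difference of Prg4 lay in the deeper tissue: at 3 steps or more its log2 ratio was -1.79 (-2.53 to -1.11), whereas up to 2 steps it was 0.54 (-0.52 to 1.56), on 21 and 15 UMIs.

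Enpp2 and Scara5 had opposite section differences in shallow and deep tissue. Up to 2 steps from the surface Enpp2 stood at 52.6 CPM in S1pr2fl/fl and 115 CPM in S1pr2fl/fl K14-Cre (log2 ratio 1.13, 0.70 to 1.55), and Scara5 at 30 and 67.7 CPM (1.18, 0.62 to 1.74). At 3 steps or more both were lower in S1pr2fl/fl K14-Cre, Enpp2 at 69.6 and 47.9 CPM (-0.54, -1.02 to -0.07) and Scara5 at 90.3 and 60.3 CPM (-0.58, -1.01 to -0.17). The median log2 ratio of all genes was 0.16 in the shallow zone and -0.23 in the deep one, a shift in the same direction over the genes as a whole. Pi16 likewise went from 0.07 (-0.29 to 0.43) in the shallow zone to -0.64 (-0.87 to -0.41) in the deep one. The deep intervals of Enpp2 and Scara5 held the median of all genes in that zone. The zone ratios were not recomputed with another surface.

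Dpp4 hardly followed depth in S1pr2fl/fl. Its level was 25.7 CPM in surface spots and 30.8 CPM at 3 steps or more, a 1.20-fold difference, and 24 of 247 surface spots (9.72%, median depth 3095 UMIs) held it, against 8.74% of all spots (median depth 3542.5). It stood at 17.1 and 35.5 CPM in S1pr2fl/fl K14-Cre, with a log2 ratio of deep over surface of 1.05 (-0.01 to 2.28). The other genes were rarer at the surface of S1pr2fl/fl: 6.88% of surface spots held Pi16, 2.43% Scara5, 2.02% Enpp2 and 1.21% Prg4, against 31.4%, 13.3%, 12.7% and 8.50% of all spots. Msln was in 0 of 247 surface spots, with an interval up to 1.48%. In S1pr2fl/fl K14-Cre, at a median surface depth of 1944 UMIs, 5.13% of surface spots held Pi16, 5.13% Enpp2, 4.62% Scara5, 3.59% Dpp4, 2.56% Msln and 0.513% Prg4.

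Counting spots at 3 steps or more against surface spots, 4 of the 5 genes with at least 30 UMIs in both zones together were at least 2-fold higher in the deep spots of S1pr2fl/fl, where 32.7% of 10449 genes were. These were Scara5 (17.6-fold), Enpp2 (16.3-fold), Prg4 (15-fold) and Pi16 (14.5-fold), and Msln, below that minimum with 8 deep UMIs and 0 at the surface, was at least 1.66-fold higher against a floor of 3 UMIs. With the counting error of both counts the lower limit of its log2 ratio was 0.08. In S1pr2fl/fl K14-Cre it was also 4 of 5, with 23.6% of 8810 genes: Pi16 (7.17-fold), Msln (4.43-fold), Scara5 (2.88-fold) and Dpp4 (2.07-fold). Enpp2 was 1.68-fold higher there, and Prg4, with 1 UMI at the surface, had a log2 ratio of 3.29 (0.66 to 8.66).

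**Figure D3:**
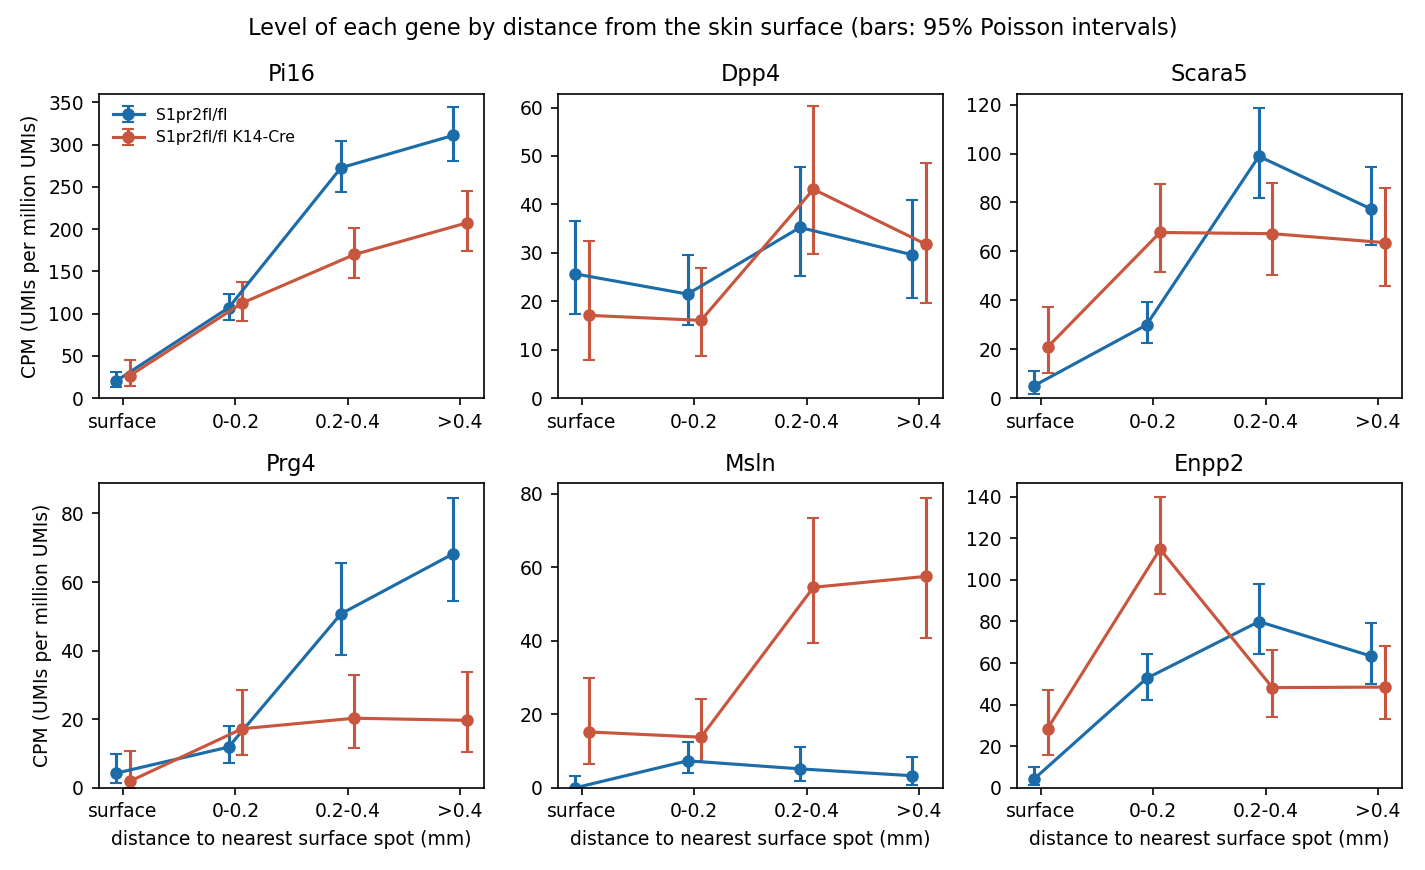
Level of each gene in CPM (y axis) in surface spots and in 3 ranges of distance from the nearest surface spot in mm (x axis), for S1pr2fl/fl (blue) and S1pr2fl/fl K14-Cre (red), with 95% Poisson intervals. Pi16 and Prg4 in S1pr2fl/fl climb to 311 and 68.3 CPM beyond 0.4 mm, and Enpp2 in S1pr2fl/fl K14-Cre is highest within 0.2 mm at 115 CPM. Dpp4 has its lowest and highest values, 16.1 and 43.1 CPM, in S1pr2fl/fl K14-Cre.

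At least 1 of the 6 genes was found in 586 spots of S1pr2fl/fl (45.7%) and 371 spots of S1pr2fl/fl K14-Cre (37.8%). Of these, 265 (45.2%, 41.1% to 49.4%) and 90 (24.3%, 20% to 29.0%) held 2 or more. The gap between the sections was smaller at equal sequencing depth: after every spot was thinned to 1000 UMIs, the shares were 17.4% (13.1% to 22.5%) and 12% (7.89% to 17.1%), with overlapping intervals. That left out the 304 and 111 shallower spots. No spot held all 6 genes, which allows up to 0.234% and 0.306% of spots. The richest were 2 spots of S1pr2fl/fl with 5 of the genes each, both 5 steps or more from the surface, and the only gene missing was Msln in the one and Dpp4 in the other.

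Pi16 was the usual partner. In S1pr2fl/fl it was present in 64.2% of Prg4 spots, 60.2% of Scara5 spots, 58.9% of Enpp2 spots, 53.3% of the 15 Msln spots and 49.1% of Dpp4 spots, against 31.4% of all spots. The shares in S1pr2fl/fl K14-Cre were 26.7%, 29.1%, 20.2%, 29.0% and 20.8%, against 16.0% of all spots. As ratios to the share over all spots, the Pi16 pairs of S1pr2fl/fl ran from 1.56 to 2.04. Prg4 with Enpp2 (2.38) and Scara5 with Prg4 (2.27) stood higher. Among the 15 pairs, the share of spots with both genes was above the share over all spots in 15 pairs of S1pr2fl/fl and in 12 of S1pr2fl/fl K14-Cre, and beyond its counting interval in 10 pairs and 1 pair.

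The pairing was also present among deeper spots alone. Among spots at 3 steps or more in S1pr2fl/fl, Pi16 was in 71.2% of Prg4 spots, 70.3% of Scara5 spots and 61.3% of Enpp2 spots. It was in 40.2% of all such spots. The Scara5 spots at 3 steps or more in S1pr2fl/fl K14-Cre held Pi16 in 42.6%, against 23.0% of all such spots. Among the spots thinned to 1000 UMIs the excess shrank, with Pi16 in 21.2% of Prg4 spots, 20.4% of Scara5 spots and 17.8% of Enpp2 spots of S1pr2fl/fl, against 16.1% of all thinned spots. These intervals all held the share over all spots, so an excess was not detectable at that depth for these 3 pairs. For Pi16 and Dpp4 the interval lay above the share over all spots, with Pi16 in 40% of the 25 thinned Dpp4 spots of S1pr2fl/fl (21.1% to 61.3%). That rested on 10 spots, and the thinning was not repeated. Among the thinned spots of S1pr2fl/fl K14-Cre, Enpp2 was in 4 of 11 Prg4 spots (36.4%, 10.9% to 69.2%, against 4.83% of all), and the intervals of the Pi16 and Dpp4 pair held the share over all spots.

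**Figure D4:**
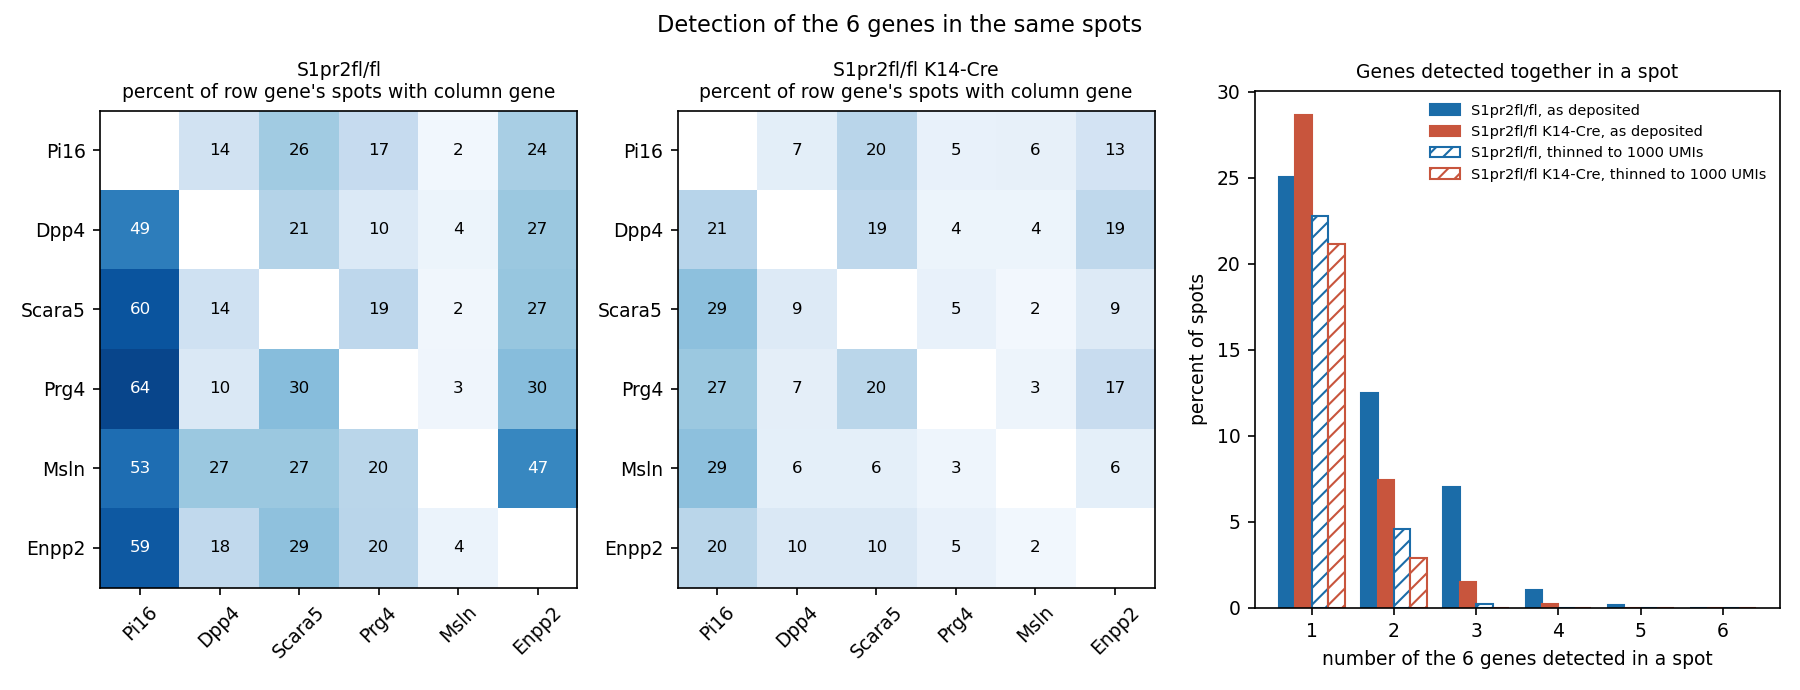
Left and middle, the percent of spots with the row gene that also held the column gene, in S1pr2fl/fl and S1pr2fl/fl K14-Cre. Right, the percent of spots (y axis) with 1 to 6 of the genes (x axis), as deposited (filled) and after thinning to 1000 UMIs (hatched), where both sections lie closer together. The Pi16 column is the darkest in S1pr2fl/fl, from 49.1% to 64.2%, and Pi16 was also the gene in most spots there (31.4%).

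The spots with 2 or more of the 6 genes were rich in connective tissue and poor in epidermis. Over all spots of S1pr2fl/fl, a list of 22 other universal and interstitial fibroblast genes stood at 4055 CPM in them and 1469 CPM in spots with none of the 6 (log2 ratio 1.46), and in S1pr2fl/fl K14-Cre at 4400 and 2618 CPM (0.75). The dermal fibroblast list gave 1.12 and 0.98, and the adipocyte list 1.43 and 0.54. The differentiated keratinocyte list gave -1.39 and -1.83, and the basal keratinocyte list -0.97 and -1.25.

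Lists of other cell types were higher in the same spots too. In the same order of sections, the log2 ratios were 1.25 and 0.83 for macrophage genes, 1.73 and 0.70 for mast cell genes, 1.44 and 1.28 for red blood cell genes, 1.25 and 1.15 for lymphatic endothelium and 1.16 and 0.54 for Schwann cells. Tendon and synovium genes gave 0.64 and 0.92, and skeletal muscle genes 0.49 and 0.07. Of the 19 lists, 13 were higher and 2 lower in both sections by intervals that exclude 0. The intervals of blood endothelium (0.98 and 0.16), papillary dermis (0.25 and -0.58), mesothelium (0.52 and -0.13) and hair (0.16 and -0.67) held 0 or turned between the sections.

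Most of these differences were smaller when spots at a like distance were compared. Within the band of spots over 2 to 4 steps from the surface, the universal fibroblast list differed by 0.22 (0.10 to 0.33) and 0.38 (0.25 to 0.51), and the dermal fibroblast list by 0.03 (-0.02 to 0.08) and 0.56 (0.50 to 0.61). Only the universal fibroblast and macrophage lists (0.35 and 0.33) were still higher in both sections, and only both keratinocyte lists were still lower. Spots with 2 or more of the 6 genes in that band had a median of 5465 and 3895 UMIs, against 939.5 and 2293 in spots with none, and the part of this gap in the list values was not tested. The adipocyte (0.19 and -0.11) and skeletal muscle (0.60 and -0.25) lists changed direction between the sections.

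**Figure D5:**
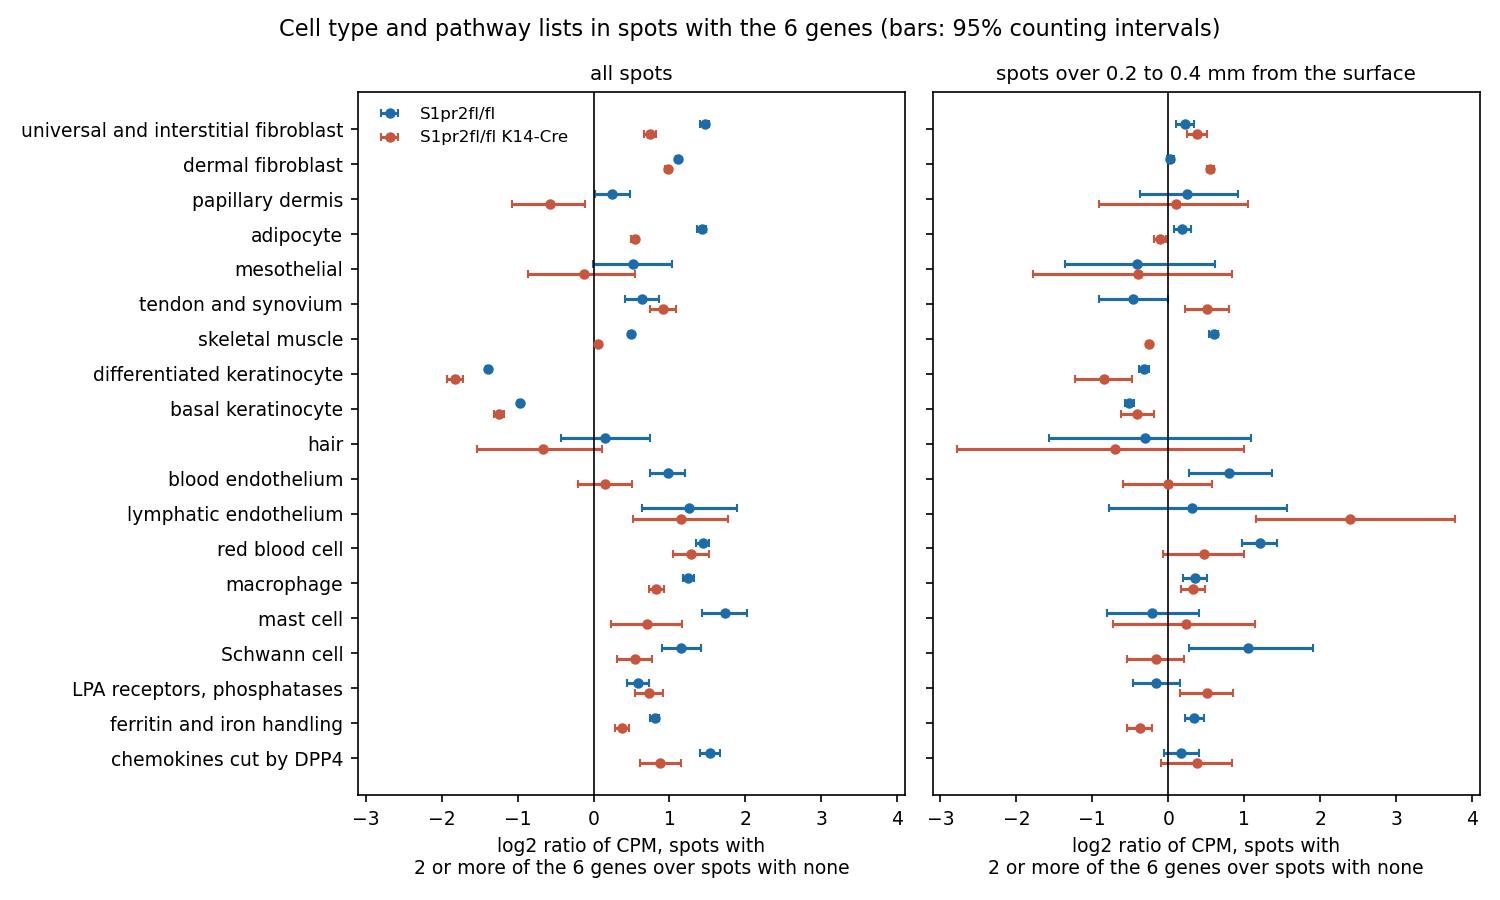
Log2 ratio of CPM between spots with 2 or more of the 6 genes and spots with none (x axis) for 19 gene lists (y axis), with 95% counting intervals, in S1pr2fl/fl (blue) and S1pr2fl/fl K14-Cre (red). Over all spots (left) fibroblast lists lie well above 0 and keratinocyte lists below, and within the band from 0.2 to 0.4 mm (right) the universal fibroblast list lies at 0.22 and 0.38 and the dermal list at 0.03 and 0.56.

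The members differed in the muscle level of the spots that held them. In that band of S1pr2fl/fl, the skeletal muscle list was lower in Enpp2-positive than in Enpp2-negative spots (log2 ratio -1.03, -1.08 to -0.98). For Prg4 it was higher in positive spots (0.67, 0.62 to 0.71), as for Pi16 (0.26), Dpp4 (0.34) and Scara5 (0.37), and for Msln, with 3 positive spots, it was lower (-1.81). The values in S1pr2fl/fl K14-Cre were -0.26 for Enpp2, 0.02 for Prg4, -0.07 for Pi16, 0.17 for Dpp4, -0.30 for Scara5 and -0.25 for Msln. The dermal fibroblast list was higher in Enpp2-positive spots of both sections (0.29 and 0.30).

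The genes most like each member along and across the sections were sought over 40 blocks of spots in each section, among 2788 genes. Likeness was the lower of the Pearson correlations of log2(CPM + 10) in the 2 sections, and all genes of a block share its cell types and depth. Pi16 was closest to Gsn (0.71), Man1a (0.71), Apod (0.70), C3 (0.67) and Selenop (0.66), of which Gsn encodes the actin-severing gelsolin, Apod a lipid carrier and C3 the central complement protein. Scara5 was closest to Igfbp4 (0.71), Pmp22 (0.68), Pam (0.66), Ctsz (0.65) and Wfdc17 (0.65), and Enpp2 to B2m (0.61), Grb10 (0.58), Aqp1 (0.57), Rarres2 (0.56) and Mmp2 (0.56). Dpp4 reached lower values, the highest being Tgfb1i1 (0.45), Lsm14b (0.44), N4bp2l2 (0.43), Cst3 (0.41) and Acadsb (0.41). Dpp4 was also the sparsest member compared, with 145 and 78 UMIs over the 40 blocks. Few UMIs per block hold a correlation down, and that part was not tested, here or for pairs of members. Prg4 and Msln had too few UMIs in 1 section each. Among the members themselves, Pi16 and Scara5 were closest in S1pr2fl/fl (0.76), but reached 0.30 in S1pr2fl/fl K14-Cre. Pi16 and Dpp4 stood at 0.18 in S1pr2fl/fl and 0.11 in S1pr2fl/fl K14-Cre.

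As a set, other genes of the universal fibroblast state shifted between the sections like genes at large. Single genes differed beyond counting error in both directions, such as Clec3b (log2 ratio 0.69, 0.59 to 0.79) and Tnxb (-0.24, -0.34 to -0.14). Of the 22 in the list, 4 were at least 2-fold higher in S1pr2fl/fl K14-Cre and none 2-fold lower, against 26.1% and 4.77% of all genes tested, and their median log2 ratio of 0.34 equalled that of all genes. The most abundant were the matrix proteins Dpt (594 and 837 CPM), Tnxb (480 and 407 CPM) and Fbn1 (239 and 301 CPM) and the secreted lectin Clec3b (335 and 540 CPM). The 4 genes past 2-fold, named after their values were seen, were Has1 (3.39 and 22.1 CPM), Wnt2 (3.95 and 14.4 CPM), Igfbp6 (38.2 and 96.3 CPM) and Efhd1 (7.53 and 15.5 CPM). Efhd1, Has1 and Wnt2 were at most 44, 63 and 41 UMIs in a section. In S1pr2fl/fl, Has1 (18 UMIs) and Wnt2 (21 UMIs) lay within the range of the receptor genes, whose 95 percentile was 22 UMIs. The log2 ratio of Efhd1 between the sections, 1.04, was below that of the receptor genes, 1.43.

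The partners of the enzymes and receptors among the members were measured as well, and their counts stand against the same 26.1% of all genes at least 2-fold higher and 4.77% lower. Of 6 chemokines that DPP4 can cut, 1 was at least 2-fold higher and 1 lower in S1pr2fl/fl K14-Cre, and the most abundant, Cxcl12, stood at 514 and 187 CPM. The list stood higher in spots with 2 or more of the 6 genes (log2 ratio 1.54 and 0.88). Of 9 receptors and phosphatases for lysophosphatidic acid, the product of autotaxin, 1 was 2-fold higher and none lower. The receptor gene Lpar1 stood at 61.1 and 93.5 CPM and the phosphatase gene Plpp3 at 204 and 296 CPM. Of the same list, Plpp1 stood at 61.3 and 88.2 CPM, while Plpp2 went the other way, at 62.3 and 35.8 CPM. That list differed by 0.59 and 0.73 between spots with 2 or more of the genes and spots with none. None of 5 ferritin and iron genes differed 2-fold. Fth1, the ferritin heavy chain, stood at 2697 and 1941 CPM, while Trf went the other way, at 173 and 223 CPM. That list differed by 0.80 and 0.38. In the band over 2 to 4 steps, in the same section order, the chemokine list differed by 0.17 and 0.38, with intervals holding 0. The lysophosphatidic acid list gave -0.16 (-0.47 to 0.15) and 0.51 (0.16 to 0.86) there, and the iron list 0.34 and -0.37. Between spots of the band with and without 1 member, the chemokine list gave 0.05 and 0.08 for Dpp4. For Enpp2 the lysophosphatidic acid list gave 0.26 and 0.52, and for Scara5 the iron list 0.05 and -0.23.

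Msln stood apart from the other members in where it lay. In S1pr2fl/fl K14-Cre, 83 of its 101 UMIs (82.2%) came from the first of the 4 segments, and 64 (63.4%) from 25 spots within 3 steps of the spot with most Msln, which held 17. Msln reached 352 CPM in these 25 spots and 13.9 CPM in all other spots of the section. Without the 25 spots the log2 ratio between the sections was 1.68 instead of 3.04. The 25 spots held 9 UMIs of Pi16 (49.5 CPM, against 135 CPM in the section), 2 of Enpp2 (11.0 and 65.0 CPM) and 1 each of Dpp4 and Prg4. Scara5, with 8 UMIs, stood at 44.0 CPM there and 58.0 CPM in the section.

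The mesothelial list was not higher where Msln was high, on few UMIs. Over the 12 spots with at least 3 Msln UMIs, the 9 mesothelial genes gave 6 UMIs in all, 1.01-fold (0.37 to 2.24) their level in the other spots. Krt8 gave 3 of these UMIs, Muc16 2 and Krt19 1, of 30, 27 and 12 UMIs in the section. Upk3b, Upk1b, Lrrn4, Wt1, Bnc1 and Gpm6a were at 0 there. Across the whole S1pr2fl/fl K14-Cre section none of the 9 lay above the 89.3 percentile of the receptor genes, with 30 UMIs of Krt8, 27 of Muc16, 26 of Gpm6a and 17 of Bnc1, against 22, 19, 24 and 47 in S1pr2fl/fl. The same 12 spots were rich in tendon and synovium genes (5.47-fold, 4.83 to 6.19) and dermal fibroblast genes (2.80-fold, 2.72 to 2.89), and poor in adipocyte genes (0.335-fold) and differentiated keratinocyte genes (0.273-fold). Thbs4 and Cilp were the most abundant tendon and synovium genes, with 19.9 and 232 CPM for Thbs4 and 106 and 375 CPM for Cilp in S1pr2fl/fl and S1pr2fl/fl K14-Cre. They gave 660 and 1066 of the list's 1989 UMIs in S1pr2fl/fl K14-Cre, and their part in the 5.47-fold value was not tested. Tnmd (10.5 and 7.03 CPM) and Kera (1.88 and 1.41 CPM), named after their values were seen, went the other way, with intervals holding 0.

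The genes that led these 12 spots, named after their values were seen, were largely those of immature or slow muscle fibres. The comparison was with all other spots of the section. Of the 12 spots 10 lay in the first segment, so place and Msln cannot be told apart. Tnnc1 was 32.1-fold higher than in the other spots, Myh3, the embryonic myosin heavy chain, 28.1-fold, Tnnt2 21.7-fold, Myl4 20-fold, Tnni1 18.6-fold and Myh8, the perinatal myosin heavy chain, 14.9-fold. The matrix genes Col12a1 (14.9-fold) and Postn (13.0-fold) were among them too. The skeletal muscle list of adult fast fibres was at 0.761-fold in the same spots. The universal fibroblast list was slightly higher there, at 1.23-fold (1.1 to 1.36). In S1pr2fl/fl, 7 of the 15 Msln spots held Enpp2 (46.7%, 21.3% to 73.4%, against 12.7% of all spots). That was the highest ratio to the share of all spots among the 15 pairs there (3.67). These Msln spots had a median of 6673 UMIs, against 3513 in spots without Msln. After thinning to 1000 UMIs, 0 of 5 Msln spots held Enpp2 (interval up to 52.2%). In S1pr2fl/fl K14-Cre, 2 of 31 Msln spots held Enpp2 (6.45%, 0.791% to 21.4%, against 10.1% of all spots). The mesothelial genes gave 6 UMIs in the Msln-rich spots and lay within the range of the receptor genes. They could therefore not decide on a mesothelial identity of these spots.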

How the data were processed

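FFPE skin sections of 10 μm, 1 per genotype, were processed by the authors with Visium CytAssist probes (11 mm capture area). The deposited values are raw UMI counts per gene and spot from Space Ranger 3.0.0 (build mm10 per the labels), not normalized. The sections shared 357 spot barcodes, which are positions of the array design. The 6 genes and the 19 gene lists were chosen with earlier results of these data known. UMIs were summed over spots and divided by all UMIs of those spots. Levels carry exact Poisson intervals at 95%, ratios conditional binomial and shares Clopper-Pearson ones, and a count of 0 without an interval was taken to allow 3 counts. With 1 section per genotype no p-value was computed. Named genes were the 6 members, genes among the 4 most abundant of each list described (not always all 4) and the 5 genes most like each member with at least 50 UMIs per section. Alternatives changed the scaling (TMM, edgeR 4.0.16), spots, depth measure and thresholds. Scripts ran in Python 3.11.15 with numpy 2.4.6 and scipy 1.17.1, and were tested on simulated data. Promoter and gene positions are RefSeq GRCm38.p6.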

Additional observations from a re-analysis of the deposited data

How the results depend on the processing

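Leaving out sections was not possible with 1 per genotype, and intervals cover counting error only. No paired analysis was possible because each genotype had 1 section. Of 66 other log2 ratios between the sections, 48 stayed within the interval of the reported value, 15 moved beyond it and 3 reversed, where reversal was counted only for genes whose reported interval excluded 0. The 3 were all for Enpp2: -0.0048 (TMM), -0.0557 (dermal fibroblast scaling) and -0.54 (3 steps or more from the surface). Pi16 moved to -0.72 with TMM, -0.77 with dermal scaling, -0.15 in the 70% of spots with least muscle and -0.64 at 3 steps or more. Dpp4 moved to -0.42 with dermal scaling. Scara5, reported at 0.20, moved to -0.17, -0.22, 0.63 and -0.58 under the 4 settings named for Pi16, and so turned in 3, and Dpp4, reported at 0.01, was below 0 in 7 of 11. Prg4 moved to -1.79 at 3 steps or more and -1.58 with the receptor gene mean taken off, and Msln to 3.99 and 3.80. Chosen after seeing the data, leaving out the first segment gave 0.75 for Msln, and leaving out the spots around its peak 1.68. The causes were not tested.

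The share of spots with any of the 6 genes that lay deeper than the median spot was 52.2% in S1pr2fl/fl and 56.6% in S1pr2fl/fl K14-Cre. In S1pr2fl/fl it moved to 57.3% with 10% surface spots, 57.2% with 30%, 45.2% by rank from the uppermost spot and 58.4% for at least 2 UMIs. In S1pr2fl/fl K14-Cre it moved to 49.9% with 30% surface spots, 46.1% with basal keratinocytes and 45.6% by rank. Against these, 49.5%, 44.6%, 35.6% and 45% of all S1pr2fl/fl spots and 41.2%, 40.7% and 38.3% of all S1pr2fl/fl K14-Cre spots were deeper. The share of member spots with 2 or more genes moved to 17.4% and 12% after thinning, 51.0% and 29.1% at 3 steps or more and 28.1% and 12.3% for at least 2 UMIs. The 4402 genes at least 2-fold higher became 703 with a minimum of 100 UMIs and 2807 with TMM, and the 803 lower became 1949 with TMM. The higher genes were 84.6% of all such calls, 49.3% with the stricter minimum and 59.0% with TMM. Of 84 depth shares of single genes, 14 moved beyond their interval.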
